A study of Mus musculus with 24 samples.

Results

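Small RNAs in extracellular vesicles (EVs) were compared with those of T cells, both from T cell cultures that held GW4869. The 6 libraries were those whose titles name GW4869 EVs (3) and GW4869 cells (3), of 24 libraries in the series, and all 4408 annotated features of their count files entered the comparison. The T cells were CD4+ T cells from spleen and lymph nodes of wild-type C57BL/6 mice. The GW4869 EVs came from the medium of cells stimulated for 3 days with GW4869 present, and the GW4869 cells were such stimulated cells themselves, so both sides had the inhibitor and the stimulation. DMSO EVs and DMSO cells, 3 libraries each, came from cultures stimulated for 3 days with the vehicle DMSO and serve as a second pair of groups. The remaining 12 libraries share the model's estimate of spread and are described where they are used. They are stimulated EVs and cells (3 days, with anti-CD3 on the plate at 2 ug/ml and anti-CD28 in the medium at 5 ug/ml) and resting EVs and cells (stimulated for 2 days, expanded for 1 and kept in medium with IL-2 for 2). No dose of GW4869 and no antibody dose for these cultures was given in the labels, and they do not describe how these EVs were isolated. They also leave unsaid whether libraries within a group are from different mice or cultures, so p-values measure the spread between libraries, which may be technical.

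GW4869 inhibits neutral sphingomyelinases, enzymes that split sphingomyelin into ceramide and phosphocholine. Ceramide helps vesicles to bud into endosomes, and those that are later released from such endosomes are called exosomes. Vesicles that bud from the cell surface form by other routes, so the comparison asks which RNAs are still found outside the cells, relative to those inside, when the ceramide route is inhibited. EVs are known to carry miRNAs, which guide Argonaute proteins to mRNAs, fragments of tRNAs, and Y RNAs, whereas snoRNAs work in the nucleolus and mitochondrial transcripts inside mitochondria.

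The mature miRNAs on which the results turn are shown first, from RefSeq (GRCm38.p6), in lower case with the seed, bases 2 to 8, in capitals. Of the 254 miRNA features, 184 had a mature sequence in the table used. The files name precursors and not arms, so the sequence is that of an arm of the precursor and not a statement on which arm was read. The first set holds the arms of the most abundant miRNAs of GW4869 EVs and of miR-155, and miR-17 and miR-20a share a seed.
mmu-miR-142a-5p: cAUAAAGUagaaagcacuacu
mmu-miR-142a-3p: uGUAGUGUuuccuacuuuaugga
mmu-miR-21a-5p: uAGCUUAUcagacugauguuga
mmu-miR-92a-3p: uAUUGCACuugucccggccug
mmu-miR-17-5p: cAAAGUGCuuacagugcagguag
mmu-miR-20a-5p: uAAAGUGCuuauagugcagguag
mmu-miR-155-5p: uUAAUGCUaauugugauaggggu
The second set holds miRNAs far lower in EVs than in cells, and the arms of miR-183, miR-182 and miR-96, which lie in 1 cluster, have similar but unequal seeds.
mmu-miR-210-3p: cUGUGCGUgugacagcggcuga
mmu-miR-183-5p: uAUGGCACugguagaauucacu
mmu-miR-182-5p: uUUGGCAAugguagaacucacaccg
mmu-miR-96-5p: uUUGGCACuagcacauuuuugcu
mmu-miR-5121: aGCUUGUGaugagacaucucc
The third set holds miR-6236, which was higher, and miR-181a, miR-221 and miR-222, named below for small folds, with miR-181b beside miR-181a. The miR-181a and miR-181b sequences share a seed, as do those of miR-221 and miR-222.
mmu-miR-181a-5p: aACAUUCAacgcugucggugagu
mmu-miR-181b-5p: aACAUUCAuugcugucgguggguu
mmu-miR-221-3p: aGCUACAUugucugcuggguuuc
mmu-miR-222-3p: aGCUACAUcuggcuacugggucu
mmu-miR-6236: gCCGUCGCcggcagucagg

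The total count of a library was 1290918 to 1663560 in GW4869 EVs and 1806960 to 2300284 in GW4869 cells. Levels are counts per 1e6 with TMM scaling (CPM), and TMM factors were 1.62 to 1.76 in GW4869 EVs and 0.949 to 1.025 in GW4869 cells, so EV levels do not add up to 1e6 and class shares are given as percent of raw counts. Folds are log2 values with their standard error (SE) from edgeR's quasi-likelihood test, and features were called at an adjusted p (Benjamini-Hochberg, all 4408 features) below 0.05. With library totals in place of TMM the median over all features was 0.76 higher, and RLE factors moved it by -0.14; directions below are therefore relative to the bulk of the features, and values with library totals are given where they change a sign or a call. In all, 1595 features were higher in GW4869 EVs (36.2% of those tested) and 1412 lower (32.0%), against 2445 higher (55.5%) and 821 lower (18.6%) with library totals. The smallest count in any file was 4, so an RNA missing from any library of the series is not among the features. Of the 8 miRNAs listed as T and blood cell markers 8 were present, with a summed level of 21050 to 33080 CPM in GW4869 EVs and 60920 to 107600 CPM in GW4869 cells. Of markers of other cells, 1 of 4 erythroid names (Mir451a, 13.47 to 27.21 CPM in EVs and 31.34 to 46.25 CPM in cells), 2 of 2 platelet and endothelial names (60.4 to 121.1 and 193.4 to 281.1 CPM) and 2 of 7 epithelial names (35.1 to 71.52 and 90.77 to 118.6 CPM) were present. The platelet and endothelial names, Mir126a and Mir126b, had equal counts in every library, so they are not separate markers and their summed level repeats the same values. The 1 myeloid, 1 liver, 6 muscle and 7 stromal names were not among the features, and the part of other cells in the results was not tested.

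By class, GW4869 EVs held a smaller share of miRNA, snoRNA and mitochondrial tRNA counts than the cells and a larger share of fragments of long genes, rRNA and Y RNA. The miRNAs took 24.7, 23.6 and 17.8% of the counts of the 3 EV libraries, against 33.9, 37.9 and 39.6% in cells. Mir142 and Mir142b had nearly equal counts, with means of 23370 CPM each in EVs and 71770 CPM each in cells. Both entered every miRNA share given here, and Mir142hg, at 23380 and 71780 CPM, entered the totals. A further 19 miRNAs had counts equal to those of another feature in every library. The miRNA shares therefore repeat some reads, and shares without such repeats were not computed. The snoRNAs took 0.446, 0.447 and 0.387% in EVs, against 2.8, 2.3 and 2.23% in cells. The mitochondrial tRNAs took 0.0149, 0.0137 and 0.0142% in EVs, against 0.283, 0.3 and 0.316% in cells. In these 3 classes each EV library lay below each cell library.

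Long genes that hold no listed small RNA took 39.2, 40.9 and 50.7% of EV counts, against 18.7, 17.1 and 16.7% of cell counts. The rRNA features took 7.89, 8.16 and 8.76% in EVs, against 7.33, 5.46 and 4.92% in cells. The Y RNAs and vault RNA took 0.469, 0.503 and 0.428% in EVs, against 0.145, 0.131 and 0.12% in cells. In these 3 classes each EV library lay above each cell library. With 3 libraries against 3 the two-sided exact permutation test gave p = 0.1 for all 6 classes, the smallest p the 20 arrangements allow, so no share can pass 0.05. The shares of nuclear tRNA fragments (3.04 ± 0.309% in EVs and 3.46 ± 0.334% in cells; SD, n = 3; exact permutation p = 0.3) and of snRNAs (1.14 ± 0.157% and 1.01 ± 0.0867%; exact permutation p = 0.3) overlapped between the groups. Among EV libraries, replicate 3 had the lowest miRNA share and the highest long gene share. Shares add up to a whole, and less of an RNA per vesicle cannot be told apart from fewer vesicles that carry it.

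**Figure D1:**
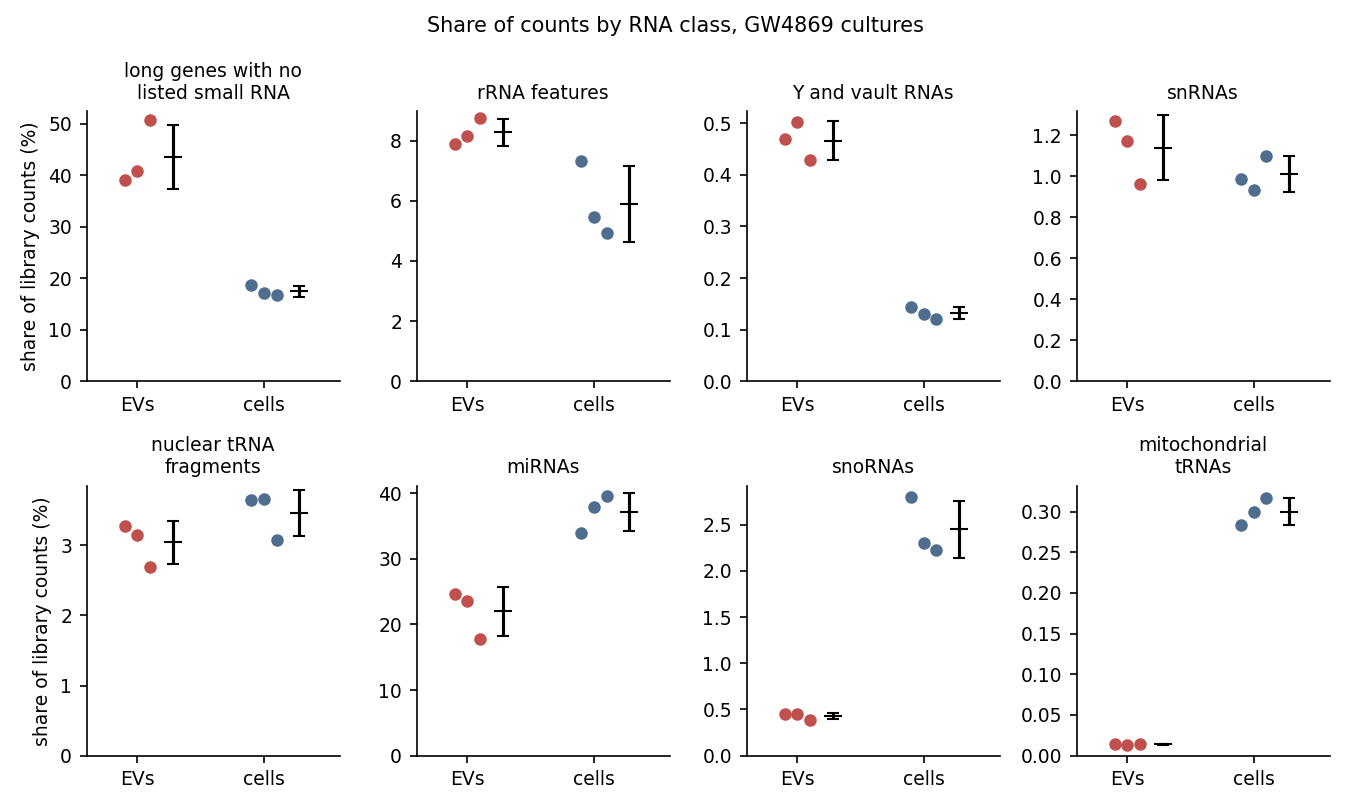
Share of each library's counts (%) in 8 RNA classes, with 1 point for each of the 3 GW4869 EV libraries (left) and the 3 GW4869 cell libraries (right), and bars for mean ± SD. Long genes stood at 39.2 to 50.7% in EVs and 16.7 to 18.7% in cells, and mitochondrial tRNAs at 0.0137 to 0.0149% in EVs and 0.283 to 0.316% in cells.

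Mitochondrial RNA was far lower in EVs. All 19 features of the mitochondrial genome were lower in GW4869 EVs, with a median log2 fold of -4.54 (-3.78 with library totals), and together they made up 0.058 to 0.0609% of EV counts, against 0.818 to 0.914% of cell counts. The 10 tRNAs had a median of -5.33, the 7 protein-coding genes one of -4.09, and the background of lower calls over all features was 32.0%. The isoleucine tRNA mt-Ti (chromosome M, 3706 to 3774, plus strand) is 69 bases long, and its sequence in GENCODE M21 is shown because it fell most of the features named.
mt-Ti: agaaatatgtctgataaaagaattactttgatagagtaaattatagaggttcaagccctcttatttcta
It stood at 7.901, 5.188 and 6.122 CPM in EVs, against 598.1, 591.7 and 796.3 CPM in cells, a log2 fold of -6.69 ± 0.29 (adjusted p = 2.75e-15). The second serine tRNA, mt-Ts2 (chromosome M, 11613 to 11671, plus strand), stood at 4.828, 5.188 and 2.041 CPM in EVs, against 287.4, 352.5 and 338.4 CPM in cells, a fold of -6.32 ± 0.30 (adjusted p = 8.78e-15). Features named by fold were chosen among those whose EV and cell libraries do not overlap, which held for 70.9% of all features, so their separation is no finding.

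The ribosomal RNAs of mitochondria fell too. The large one, mt-Rnr2 (chromosome M, 1094 to 2675, plus strand), had 85.15, 88.19 and 103.3 CPM in EVs, against 3063, 3580 and 3827 CPM in cells (log2 fold -5.24 ± 0.18, adjusted p = 3.18e-17). The small one, mt-Rnr1 (70 to 1024, plus strand), had 128.2, 147.8 and 136.7 CPM in EVs, against 1445, 1555 and 1643 CPM in cells (-3.49 ± 0.19, adjusted p = 6.61e-14). The folds of the mitochondrial tRNAs were not alike, since mt-Te, the glutamate tRNA, stood at -3.45 ± 0.29 and mt-Tv, the valine tRNA, at -3.84 ± 0.22. Among protein-coding genes of the mitochondrial genome, which encode subunits of the respiratory chain, folds lay between -3.97 ± 0.24 for mt-Cytb (6.145, 6.67 and 10.61 CPM in EVs, against 109.1, 116.7 and 143.3 CPM in cells) and -4.70 ± 0.29 for mt-Nd5 (7.462, 4.076 and 6.122 CPM in EVs, against 126.4, 174.3 and 158 CPM in cells).

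The snoRNAs, which guide the chemical modification of rRNA in the nucleolus, fell almost without exception. Of 152 listed, 0 were higher and 150 were lower in GW4869 EVs, with a median log2 fold of -3.22. With library totals 148 were lower, with a median of -2.47. The 2 not called were Scarna3a (-0.58, adjusted p = 0.16) and Gm22009 (-1.10, adjusted p = 0.0672), named after their values were seen. Scarna3a stood at 0.18 with library totals (adjusted p = 0.636), and Gm22009 was called lower with RLE factors, DESeq2, a replicate block and the GW4869 libraries alone (adjusted p = 0.0369, 0.0247, 0.0342 and 0.00679). By name, 58 of 58 Snord features fell, with a median of -3.54, and 20 of 21 Snora and Scarna features, with a median of -2.70. By sequence, 71 of the 145 listed snoRNAs with a GENCODE transcript held both box C (TGATGA, sought in the first 20 bases) and box D (CTGA, in the last 20), 49.0%, against 20.7% of all 1483 snoRNA genes in that annotation. A further 25 (17.2%, against 17.9%) held ACA 3 bases before the 3′ end and not both boxes. All 71 and all 25 were lower, with median folds of -3.47 (range -4.79 to -2.01) and -2.70 (range -3.87 to -1.38). The difference between the kinds was not tested, and the search read only the transcript strand and only these letters, so boxes of other spelling were missed.

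Gm23201 (chromosome 2, 167064998 to 167065086, plus strand), one of the snoRNAs with the lowest folds, shows both boxes, in capitals.
Gm23201: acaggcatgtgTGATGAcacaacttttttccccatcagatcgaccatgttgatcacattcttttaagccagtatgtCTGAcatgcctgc
It stood at 15.36, 25.2 and 18.77 CPM in EVs, against 764.5, 355.4 and 527 CPM in cells, a log2 fold of -4.79 ± 0.30 (adjusted p = 5.32e-13). Snord70 (chromosome 1, 59691934 to 59692020, plus strand) had 2.195, 5.929 and 2.449 CPM in EVs, against 135.6, 92.77 and 76.92 CPM in cells, a fold of -4.80 ± 0.37 (adjusted p = 2.4e-11). For both, EV replicate 2 was the highest of the EV libraries.

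**Figure D2:**
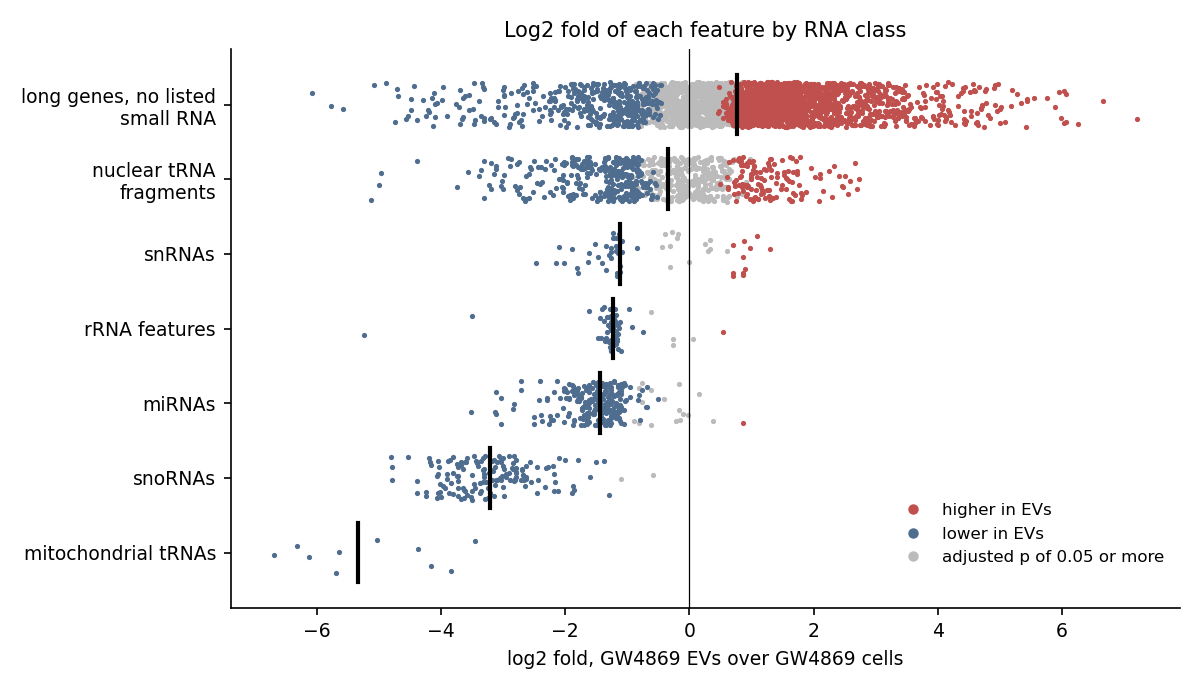
Log2 fold of GW4869 EVs over GW4869 cells for each feature of 7 RNA classes, with black bars at the class medians and colour for the call. The snoRNAs (median -3.22) and mitochondrial tRNAs (median -5.33) lie wholly below 0, whereas long genes spread to both sides around a median of 0.77.

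Among other structured RNAs, Rny1 was one of the few that were higher in EVs. Y RNAs are short transcripts of RNA polymerase III bound by the Ro60 protein, and their fragments are common in vesicles. Rny1 (chromosome 6, 47788069 to 47788180, minus strand) had 2321, 2611 and 2181 CPM in GW4869 EVs, against 751, 740.2 and 714.3 CPM in GW4869 cells, a log2 fold of 1.69 ± 0.20 (adjusted p = 8.53e-08; 2.44 with library totals). Its transcript and that of Rny3 in GENCODE M21 are set side by side, since only the first was called.
Rny1: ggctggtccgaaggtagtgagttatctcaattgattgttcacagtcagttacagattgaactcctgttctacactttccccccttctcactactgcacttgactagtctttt
Rny3: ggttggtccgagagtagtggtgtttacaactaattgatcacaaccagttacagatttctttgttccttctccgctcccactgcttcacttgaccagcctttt
Rny3 (chromosome 6, 47781624 to 47781725, plus strand) had 114.1, 176 and 143.2 CPM in EVs, against 111.3, 140.6 and 128.2 CPM in cells, with overlap (0.19 ± 0.21, adjusted p = 0.442). With library totals Rny3 was called as well, at 0.94 (adjusted p = 6.03e-05). The vault RNA Vaultrc5, part of a large cytoplasmic particle, had 219, 311.3 and 219.2 CPM in EVs, against 550, 399.4 and 425.8 CPM in cells (-0.88 ± 0.31, adjusted p = 0.0159), and its call was lost without EV replicate 1 or 3 or cell replicate 1 and with library totals (adjusted p = 0.0822, 0.0873, 0.0702 and 0.671).

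Of the 14 other small RNAs 2 were higher and 7 lower, with a median of -0.705. With library totals 3 were higher and 2 lower, with a median of 0.05. Gm24372 was the highest, with 179.1, 188.6 and 147.3 CPM in EVs, against 51.33, 49.8 and 39.38 CPM in cells (1.87 ± 0.23, adjusted p = 8.46e-08). Rmrp (chromosome 4, 43492788 to 43493058, minus strand), the RNA of an enzyme that cuts precursor rRNA, had 71.54, 79.3 and 59.58 CPM in EVs, against 274.5, 229 and 252.8 CPM in cells (-1.84 ± 0.22, adjusted p = 8.76e-08). Its relative Rpph1, the RNA of RNase P, which trims precursor tRNAs, overlapped between the groups, with 111.5, 115.6 and 120.8 CPM in EVs and 135.1, 102.5 and 111.7 CPM in cells (-0.005 ± 0.20, adjusted p = 0.983), but it was called higher with library totals (0.75, adjusted p = 0.00097). Rn7s1 (chromosome 12, 69159295 to 69159594, plus strand), a gene of the RNA of the signal recognition particle, had 185.7, 243.4 and 165.7 CPM in EVs, against 350.1, 363.3 and 437.3 CPM in cells (-0.95 ± 0.18, adjusted p = 5.6e-05). That call was lost with library totals (-0.20, adjusted p = 0.258).

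The snRNAs, which form the spliceosome in the nucleus, split. Of 57, 11 were higher and 33 lower, with a median of -1.11, and with library totals 20 were higher and 14 lower. Rnu5g (chromosome 9, 65201726 to 65201841, minus strand), a U5 snRNA, had 126.4, 175.6 and 86.93 CPM in EVs, against 412.3, 384.2 and 867.7 CPM in cells (-2.10 ± 0.31, adjusted p = 1.58e-06). The other named snRNA that fell was Gm25704 (chromosome 2, 133008487 to 133008654, plus strand), at -2.47 ± 0.31. Those that were higher most were Gm26316 (chromosome 11, 101604850 to 101605040, plus strand), with 218.6, 220.5 and 190.2 CPM in EVs, against 115.6, 63.47 and 76.92 CPM in cells (1.30 ± 0.26, adjusted p = 0.000127), and Gm24497 (chromosome 1, 72244213 to 72244403, plus strand), at 1.09 ± 0.24. Many snRNA features are near-identical copies, and the labels do not say how reads were split among them.

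Cytoplasmic rRNA was represented mainly by Rn18s-rs5, a copy of 18S rRNA and the most abundant feature of GW4869 EVs. It had 30840, 36770 and 39300 CPM in EVs, against 27860, 21640 and 23820 CPM in cells, a log2 fold of 0.54 ± 0.17 (adjusted p = 0.00548), and it made up 69.0 to 75.4% of rRNA counts in EVs and 39.0 to 45.9% in cells. The call rests on the scaling, with adjusted p = 0.0501 with RLE factors. It was the only rRNA feature called higher in EVs, against 2 with library totals. Another 65 of the 70 were lower, with a median of -1.24, and 56 of the 70 were annotated copies of 5S rRNA, of which 54 fell; with library totals only 10 rRNA features were lower. A pair of lncRNAs on chromosome 17, Gm42418 (39846958 to 39848788, plus strand) and AY036118 (39847113 to 39848035, minus strand), overlap each other and an annotated rRNA gene. They took 3.32 to 4.05% and 2.44 to 2.98% of EV counts, against 1.26 to 1.66% and 0.798 to 1.04% of cell counts.

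The miRNAs fell as a class. Of 254, 1 was higher and 237 lower in GW4869 EVs, with a median log2 fold of -1.44, against 36.2% higher and 32.0% lower over all features. With library totals 5 were higher and 169 lower, with a median of -0.68. The choice of scaling moves all folds by nearly the same amount, so it cannot change where the class lies relative to the bulk of the features. It does change the number of calls. Some counts are not separate: the reads of Mir142 and Mir142b, on opposite strands of 1 locus, differed in so few counts that their levels agree to 4 digits.

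The miRNAs most abundant in GW4869 EVs were lower there than in the cells. Mir142 (plus strand of chromosome 11, 87756864 to 87756927), typical of blood cells, had 26130, 27390 and 16600 CPM in EVs, against 49260, 69590 and 96470 CPM in cells (-1.62 ± 0.27, adjusted p = 8.5e-06). Mir21a (chromosome 11, 86584067 to 86584158, minus strand), induced in activated T cells, had 12320, 13440 and 11700 CPM in EVs, against 50990, 39200 and 33120 CPM in cells (-1.72 ± 0.30, adjusted p = 1.84e-05). Next came 3 members of the miR-17 to 92 cluster on chromosome 14, which promotes T cell proliferation: Mir92-1 (-1.22 ± 0.24), Mir17 (-1.12 ± 0.17) and Mir20a (-1.17 ± 0.18). Mir17 had 4457, 4536 and 3073 CPM in EVs, against 7914, 8833 and 9426 CPM in cells. Of the 15 names listed for this cluster and its paralogs 14 matched a feature, and all 14 fell, with a median of -1.21. The name Mir18a matched none, and a feature named Mir18 was not counted. Also lower were 12 of 12 let-7 features (-1.54), 6 of 6 of the miR-15/16 family (-1.48), 4 of 4 of the miR-29 family (-1.73), 6 of 6 of the miR-30 family (-1.11) and 6 of 6 of the miR-23/27/24 clusters (-1.70). Of all 254 miRNAs 93.3% were lower, with a median of -1.44, so these family counts are near the share of the class. With library totals 12 of the 14, 11 of the 12 let-7 and 2 of the 6 miR-30 features were called lower, and all measured members of the other families named.

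miRNAs listed as rising when T cells are activated fell in EVs to unlike degrees. Of the 14 names on that list 13 matched a feature, and 13 fell, with a median of -1.79 (10 of 13 with library totals, median -1.03). Of all 254 miRNAs 93.3% were lower. The name Mir146a matched none, and a feature named Mir146 was not counted. Mir210 (chromosome 7, 141221384 to 141221493, minus strand), induced by hypoxia, had 123.3, 146.4 and 131.4 CPM in EVs, against 1227, 769.5 and 839.8 CPM in cells (-2.82 ± 0.24, adjusted p = 1.93e-10). Mir183 (chromosome 6, 30169668 to 30169737, minus strand) had 59.69, 62.62 and 73.87 CPM in EVs, against 493.8, 425.7 and 369.5 CPM in cells (-2.71 ± 0.29, adjusted p = 1.4e-08). Its cluster partners Mir182, which acts on Foxo1 in T cells, and Mir96 had folds of -2.26 ± 0.25 and -2.38 ± 0.29. Despite the name of the list, mean levels of Mir210 and Mir183 were highest in resting cells (4998 and 1691 CPM). They were 931.4 and 506.6 CPM in stimulated cells and 945.4 and 429.7 CPM in GW4869 cells. Mir155 (chromosome 16, 84714140 to 84714204, plus strand), needed for normal T cell responses, had 4005, 3938 and 3014 CPM in EVs, against 9350, 9517 and 9238 CPM in cells (-1.36 ± 0.18, adjusted p = 2.24e-07), near the median of its class. The smallest falls of the list were those of Mir222 (-0.82 ± 0.23, adjusted p = 0.00305; -0.063 with library totals, adjusted p = 0.78) and Mir221 (-0.50 ± 0.20, adjusted p = 0.0288), neighbours on chromosome X that share the seed shown above. Mir221 had 47.84, 48.91 and 33.47 CPM in EVs, against 56.73, 71.28 and 56.32 CPM in cells, and with library totals it stood at 0.25 (adjusted p = 0.227). Its call was also lost without cell replicate 2 and without EV replicate 1, 2 or 3 (adjusted p = 0.138, 0.0625, 0.0637 and 0.324).

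Among miRNAs with a mean of at least 50 CPM over the 6 libraries, the others named for large falls were Mir5121, Mir193a, Mir3535 and Mir671. Mir5121 (chromosome 7, 45126918 to 45126991, minus strand) had 27.65, 16.67 and 9.795 CPM in EVs, against 188, 188.5 and 239 CPM in cells (-3.51 ± 0.25, adjusted p = 9.63e-12). Mir193a (chromosome 11, 79711969 to 79712034, plus strand) had a fold of -3.12 ± 0.48, with cell levels that spread from 53.49 to 302.2 CPM. Mir3535 had one of -3.10 ± 0.22 and Mir671 one of -2.41 ± 0.26. The 1 miRNA that was higher, Mir6236 (chromosome 9, 110281287 to 110281409, plus strand), had 468.3, 602.5 and 751.3 CPM in EVs, against 366.9, 296.4 and 334.3 CPM in cells (0.87 ± 0.22, adjusted p = 0.000938). Its folds in GW4869, DMSO, stimulated and resting cultures were 0.87, 1.87, 0.63 and 3.335. Those of the lncRNA AY036118, which overlaps an annotated rRNA gene, were 0.84, 1.93, 0.67 and 2.75. Whether Mir6236 reads come from rRNA was not tested.

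Of 12 listed miRNAs of naive and resting T cells, 8 were lower (66.7%, against 93.3% of all 254 miRNAs) and 0 higher in EVs, with a median of -0.81. Library totals gave 3 higher, 3 lower and a median of -0.05. Mir150 (chromosome 7, 45121757 to 45121821, plus strand), abundant in mature lymphocytes, had 1429, 1337 and 1094 CPM in EVs and 1656, 1381 and 1225 CPM in cells, with overlap (-0.14 ± 0.22, adjusted p = 0.572). With library totals it was called higher (0.61, adjusted p = 0.00514), and without EV replicate 3 it stood at 0.063 (adjusted p = 0.826). Mir181a-1 and Mir181a-2, loci of miR-181a, which tunes the strength of T cell receptor signals, overlapped too (-0.17 ± 0.21 and -0.10 ± 0.22, adjusted p = 0.479 and 0.693). With library totals both were called higher, at 0.60 and 0.66 (adjusted p = 0.00242 and 0.00231). Mir181a-1 had 124.7, 118.9 and 109 CPM in EVs and 119.9, 121.6 and 154.3 CPM in cells. The Mir181b-1 and Mir181b-2 loci beside them, whose arm has the same seed, were lower, at -1.09 ± 0.25 and -1.15 ± 0.23 (adjusted p = 0.000496 and 0.000109). Both calls were lost with library totals (-0.33 and -0.40, adjusted p = 0.165 and 0.0694), and the difference between the miR-181a and miR-181b loci was not tested.

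To compare miRNAs with each other, the 254 were also fitted alone, an alternative chosen after seeing the data, which sets the bulk of the miRNAs to 0. By edgeR's quasi-likelihood test 19 were then higher (7.48%) and 24 lower (9.45%). Relative to other miRNAs, Mir150 was higher in EVs by 1.30 ± 0.17 (adjusted p = 1.78e-06), Mir181a-1 by 1.30 ± 0.15, Mir181a-2 by 1.35 ± 0.15 (adjusted p = 2.09e-07 each), Mir221 by 0.95 ± 0.19 (adjusted p = 0.000637) and Mir222 by 0.64 ± 0.17 (adjusted p = 0.0094). On the same scale Mir210 was lower by -1.38 ± 0.18, Mir183 by -1.26 ± 0.20 and Mir125a by -1.65 ± 0.28, whereas Mir155 stood at 0.09 ± 0.12 (adjusted p = 0.668) and Mir142 at -0.15 ± 0.17 (adjusted p = 0.626). Of the naive and resting list 6 of 12 were higher and 0 lower in this fit, and of the activation-induced list 2 were higher and 5 lower of 13. The motif GGAG, sought in mature sequences on their own strand, stood in 4 of the 18 higher miRNAs with a sequence (22.2%), in 3 of the 20 lower ones and in 29 of all 184 (15.8%), and these shares were not compared by a test.

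**Figure D3:**
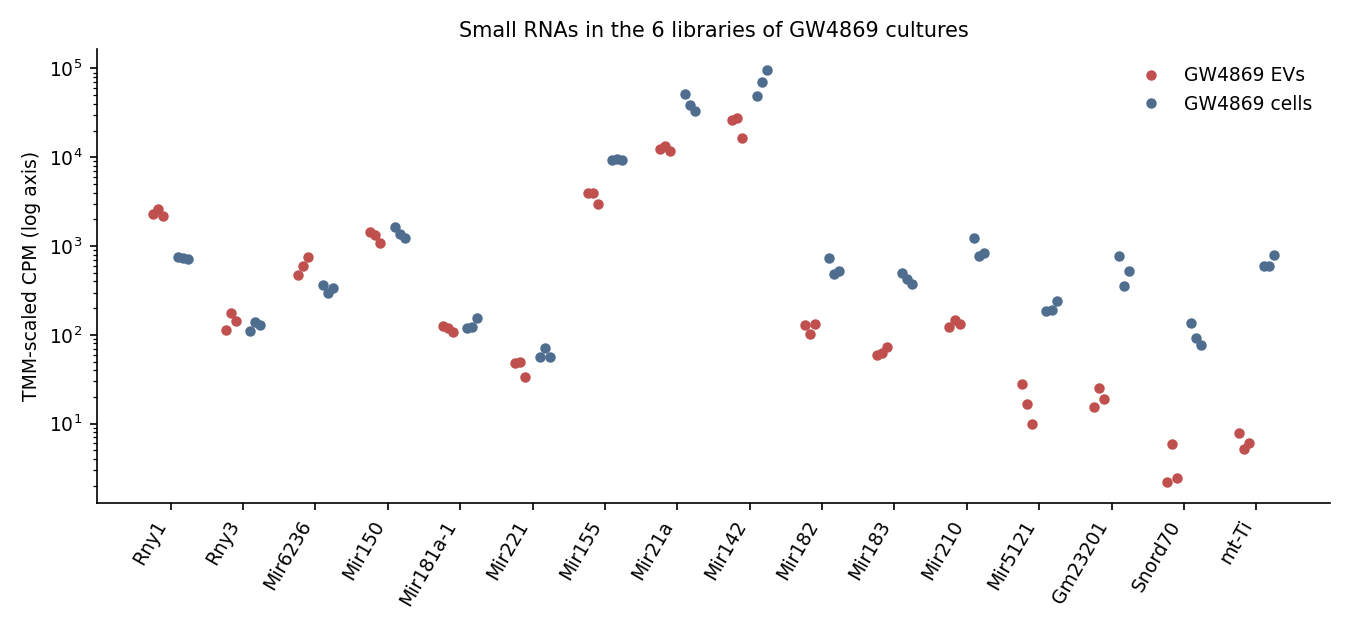
TMM-scaled CPM on a log axis for 16 small RNAs, with 1 point for each of the 3 GW4869 EV libraries (left of each pair) and the 3 GW4869 cell libraries (right). Rny1 and Mir6236 lie higher in all EV libraries, Rny3, Mir150 and Mir181a-1 overlap, and mt-Ti lies at 5.188 to 7.901 CPM in EVs and 591.7 to 796.3 CPM in cells.

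Fragments of nuclear tRNAs went in both directions, by end and by amino acid. Cells cut tRNAs under stress, and the fragments can bind proteins and affect translation. The submitters' names mark the 5′ end (5FR) and the 3′ end (3FR) with a number, and longer 5′ pieces as 5_half_up. Of the 780 features, each a locus and a kind, 136 were higher and 312 lower, with a median of -0.35. With library totals the direction of the class turned, with 305 higher, 134 lower and a median of 0.41. Loci of 1 anticodon are near-identical, so they were also summed, with long genes that hold a small RNA left out, in a fit with TMM factors alone. In that fit 1416 of all 3591 features were higher (39.4%) and 1037 lower (28.9%), and of the 170 summed tRNA fragments 30 were higher and 72 lower, with a median of -0.32.

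Among 5FR_1 fragments more were higher than lower. Of 172 features 85 were higher and 10 lower in GW4869 EVs (median 0.63), and of 31 sums 16 were higher and 1 lower (median 0.65). Over all features 36.2% were higher and 32.0% lower (55.5% and 18.6% with library totals), and in the fit with sums 39.4% and 28.9%. They took 1.08 to 1.33% of EV counts, against 0.403 to 0.681% of cell counts. With library totals 151 of the 172 were higher and 8 lower. The other 5′ kind, 5FR_2, had 4 of 109 higher and 66 lower (median -1.28; 27 higher and 50 lower with library totals). The 5_half_up kind had 5 of 102 higher and 65 lower (-0.86), and 3FR_1 had 20 of 207 higher and 109 lower (-0.69), but with library totals these splits turned to 19 higher and 18 lower and to 53 higher and 31 lower. The 3FR_2 fragments took 0.239 to 0.308% of EV counts, against 0.987 to 1.57% of cell counts, whereas 15 of their 58 features were lower and 4 higher (median -0.24; 0.53 with library totals).

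The sums with the highest folds were 5′ pieces of glycine and valine tRNAs and a 3′ piece of 1 glycine tRNA. Summed tRNA-Gly-TCC 5FR_1 had 958.5, 1018 and 871.2 CPM in EVs, against 200.5, 161.8 and 161.4 CPM in cells (2.44 ± 0.23, adjusted p = 1.45e-09). Its 3FR_1 piece had 465.3, 446.3 and 389.2 CPM in EVs, against 92.73, 114.2 and 95.22 CPM in cells (2.10 ± 0.21, adjusted p = 3.55e-09). The 5_half_up piece of the same tRNA overlapped between the groups, with 456.5, 429.3 and 416 CPM in EVs and 462.1, 517 and 345.6 CPM in cells (-0.025 ± 0.24, adjusted p = 0.933). The pieces of 1 tRNA thus had unlike ratios. Of the others, tRNA-Gly-ACC 5FR_1 was higher by 2.58 ± 0.37, tRNA-Val-TAC 5FR_1 by 1.76 ± 0.38 and tRNA-Val-CAC 5FR_1 by 1.59 ± 0.40, the last with cell levels of 156.1, 134.5 and 621.1 CPM that were uneven through replicate 3.

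The lowest sums were all 3FR_2 pieces. Summed tRNA-Cys-GCA 3FR_2 had 148.6, 149.3 and 100.4 CPM in EVs, against 4093, 5520 and 3923 CPM in cells (-5.09 ± 0.28, adjusted p = 7.02e-14). Summed tRNA-Ala-TGC 3FR_2, the most abundant, had 195.4, 260 and 310.8 CPM in EVs, against 11770, 9453 and 3576 CPM in cells (-5.02 ± 0.43, adjusted p = 2.04e-10). The pieces of tRNA-Leu-CAA (-5.05 ± 0.30), tRNA-Ser-AGA (-4.48 ± 0.27) and tRNA-Gly-GCC (-3.84 ± 0.35) followed. A 3FR_2 piece of another tRNA, tRNA-Asp-GTC, overlapped (-0.53 ± 0.25, adjusted p = 0.0644). Folds between pieces of 1 kind therefore spanned more than the SE of any one of them.

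By amino acid, proline and threonine tRNA fragments were lower almost without exception. Of 38 proline features 36 fell and 0 were higher (median -2.16; 13 of 14 sums lower), and of 12 threonine features 12 fell (median -2.41; 3 of 3 sums). Lysine had 62 of 91 lower and 6 higher (-1.23), among them summed tRNA-Lys-TTT 5_half_up, with 134.4, 148.3 and 121.9 CPM in EVs, against 1113, 1431 and 1310 CPM in cells (-3.25 ± 0.25, adjusted p = 2.31e-11). Aspartate had 59 of 87 lower and 14 higher (-1.06). Leucine had 23 of 52 features higher and 11 lower, but 6 of 17 sums higher and 9 lower, and isoleucine had 11 of 21 features higher and 10 lower, but 1 of 3 sums higher and 2 lower. Serine had 8 of 30 features higher and 2 lower, and 2 of 15 sums in each direction. Over all features 36.2% were higher and 32.0% lower. Leucine features had 44.2% higher and 21.2% lower, and serine features 26.7% and 6.67%, so the higher share of serine was below that of all features. With library totals proline (32 lower) and threonine (9 lower) still had 0 higher, whereas lysine had 20 higher and 38 lower. Aspartate then had 14 features higher and 20 lower, leucine 30 and 5, isoleucine 11 and 1, and serine 23 and 2, against 55.5% and 18.6% of all features.

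In percentage points, fragments inside long genes that hold no listed small RNA differed most in share (26.1 points). A deposited count of a long gene is a count of small reads mapped within its span and no mRNA level: in 202 of the 207 genes that hold a listed small RNA, the gene's count reached at least 0.9 of the largest count inside it in every library. Those 207 genes were set apart, and 174 of them were lower and 12 higher. Of the 2835 long genes that hold none, 1429 were higher and 409 lower in GW4869 EVs, with a median log2 fold of 0.77 (1.52 with library totals, 2073 higher and 193 lower). Of these, 11.9% of the 2747 placed in GENCODE M21 overlap another listed gene and may share reads. Among the 2420 that overlap none, 51.7% were higher and 13.9% lower (median 0.79). Without Gm42418 and AY036118, long genes that hold no listed small RNA took 33.4 to 43.6% of EV counts, against 14.5 to 16% of cell counts.

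The genes with the highest folds differed widely in product. Ankrd11 (chromosome 8, 122883822 to 123042277, minus strand), which encodes a chromatin regulator, had 1850, 3149 and 4698 CPM in EVs, against 24.31, 21.97 and 19.69 CPM in cells, a log2 fold of 7.20 ± 0.52 (adjusted p = 8.25e-12). Igsf5 (chromosome 16, 96361668 to 96422121, plus strand), encoding a protein of cell junctions, had 1154, 1416 and 3159 CPM in EVs, against 17.83, 23.92 and 15.11 CPM in cells (6.65 ± 0.55, adjusted p = 1.09e-10). Rbfox1 (chromosome 16, 5885355 to 7411526, plus strand), a splicing factor of neurons and muscle, had 709.7, 966.4 and 1634 CPM in EVs, against 15.13, 15.62 and 18.32 CPM in cells (6.07 ± 0.40, adjusted p = 1.56e-12). In these genes the EV libraries spread more than the cells. Ankrd11 lies within a readthrough gene, Gm20388, and may share reads with it.

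A930011G23Rik was uneven, with 160.2, 1140 and 5276 CPM in EVs, against 29.72, 26.37 and 30.22 CPM in cells (6.25 ± 0.82, adjusted p = 3.11e-07). Fgd5 (chromosome 6, 91978878 to 92076004, plus strand), an exchange factor of Cdc42 in endothelial cells, ran the other way across EV libraries, with 1119, 513.6 and 241.6 CPM, against 8.645, 8.788 and 10.53 CPM in cells (6.05 ± 0.66, adjusted p = 1.46e-08). Plekhg1 was higher by 6.04 ± 0.45, Fam49a by 5.89 ± 0.43 and Fam19a1 by 5.54 ± 0.48, whereas Camk2b, which encodes a subunit of a calmodulin-dependent kinase, was higher by 1.31 ± 0.20.

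Among long genes, the share called higher in EVs was larger the more of the genome the genes span. The 2740 placed genes outside the mitochondrial genome were ranked by span and split into 4 sets of 685. In the set of the shortest (0.105 to 55.1 kb) 19.1% were higher and 33.6% lower in GW4869 EVs, with a median log2 fold of -0.14. In the second (to 123 kb) 42.0% were higher and 14.0% lower (0.55), and in the third (to 253 kb) 61.3% and 5.99% (1.06). In the set of the longest (253 to 2960 kb) 79.7% were higher and 3.07% lower, with a median of 1.54. Spearman's rho of span and fold across the genes was 0.48 in GW4869 cultures, 0.39 in DMSO cultures, 0.44 in stimulated cultures and -0.045 in resting cultures. These are descriptions across genes of the same libraries. Longer genes had higher levels mainly in EVs, where rho of span and mean CPM was 0.49, against 0.12 in GW4869 cells. From the shortest to the longest set, median levels were 12.4, 16.9, 24.8 and 57.9 CPM in EVs and 13.3, 10.3, 10.9 and 17.6 CPM in cells. With library totals each median moves up by about 0.76, so that of the shortest genes turns positive.

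**Figure D4:**
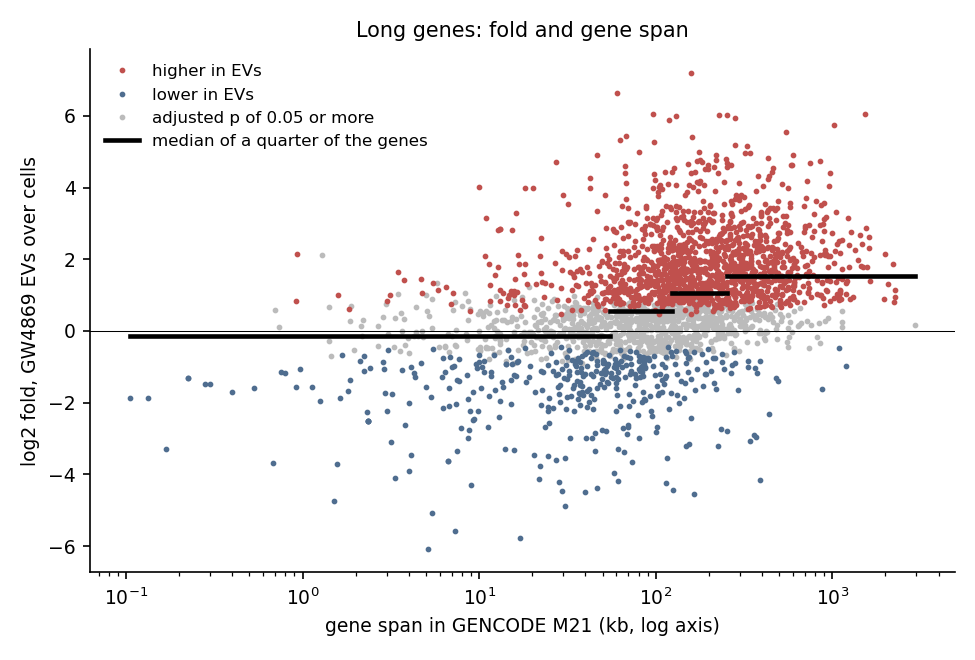
Log2 fold of GW4869 EVs over GW4869 cells against gene span (kb, log axis) for the 2740 long genes that hold no listed small RNA, coloured by call, with black bars at the median of each of 4 equal sets by span. The medians run upward, at -0.14, 0.55, 1.06 and 1.54.

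Genes whose fragments were lower in EVs were shorter, with a median span of 42.3 kb against 194 kb for the genes that were higher. The lncRNA Gm14321 (chromosome 2, 167777467 to 167782569, plus strand) had 10.1, 10.75 and 5.714 CPM in EVs, against 531.1, 725.5 and 545.8 CPM in cells (-6.07 ± 0.28, adjusted p = 8.78e-15). Fbxo45 (chromosome 16, 32230112 to 32247158, minus strand), part of a ubiquitin ligase, had 5.267, 7.411 and 2.857 CPM in EVs, against 329.6, 306.1 and 228.5 CPM in cells (-5.77 ± 0.33, adjusted p = 1.4e-13), and another annotated small RNA lies inside it. Mapk15 (-5.07 ± 0.30), Zbtb41 (-4.89 ± 0.30) and 9430097D07Rik (-4.73 ± 0.36) followed, the last overlapping Pip5kl1, whose levels ran in parallel (r = 0.999 over 24 libraries).

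Fgg (chromosome 3, 83007724 to 83015049, plus strand), the fibrinogen gamma chain of liver, had 77.25, 99.68 and 133.5 CPM in EVs, against 6832, 5917 and 2121 CPM in cells (-5.58 ± 0.44, adjusted p = 5e-11). Its levels ran in parallel with those of the tRNA-Ala-TGC-2-1 3FR_2 fragment, which had 137.8, 178.2 and 223.6 CPM in EVs, against 8017, 6568 and 2585 CPM in cells, with a correlation of log CPM of 0.999 over the 24 libraries, which share depth and scaling. The liver miRNA on the marker list was not among the features. Of the 24 such long genes with a called fold under -4, 6 lie on the mitochondrial genome, 1 holds another annotated small RNA and 0 hold a RefSeq tRNA.

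Whether the EV to cell ratio with GW4869 differed from that with DMSO was tested as a difference of the 2 ratios. Across the 4408 features the log2 folds of the GW4869 and DMSO pairs, which share no library, had a Pearson r of 0.90. Of the features higher in GW4869 EVs 76.9% were also higher in DMSO EVs (75.2% of the DMSO list), and of those lower 82.1% were also lower (92.5% of the DMSO list). Medians in GW4869 and DMSO cultures were -1.44 and -1.15 for miRNAs, -3.22 and -2.59 for snoRNAs, -5.33 and -4.27 for mitochondrial tRNAs, -0.35 and 0.15 for nuclear tRNA fragments, -0.70 and 0.12 for other small RNAs and 0.77 and 0.66 for long genes that hold no listed small RNA. Over all features they were 0.18 and 0.29. The median difference of ratios depended on scaling. With TMM it was -0.295 for miRNAs, -0.65 for snoRNAs, -0.77 for mitochondrial tRNAs, -0.48 for nuclear tRNA fragments and -0.11 over all features. With library totals these values were -0.08, -0.44, -0.59, -0.30 and 0.065. By edgeR's quasi-likelihood test 77 ratios were higher with GW4869 than with DMSO (1.75%) and 257 lower (5.83%). All but 1 of the 77 were long genes that hold no listed small RNA (76 of the 2835 tested). The 257 held 135 of the same 2835, 59 of 780 tRNA fragments, 26 of 152 snoRNAs and 5 of 254 miRNAs, against 5.83% of all features.

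The ratios that fell most relative to DMSO were those of fragments in Gnao1 (-3.97 ± 0.40, adjusted p = 1.27e-06), the gene of a G protein alpha subunit, in Lztr1 (-2.63 ± 0.38), Gm15662 (-2.46 ± 0.38), Zfp185 (-2.25 ± 0.35) and Cd44 (-2.03 ± 0.33), an adhesion receptor of activated T cells. Gnao1 had 21.95, 28.9 and 31.83 CPM in GW4869 EVs, against 165.9, 154.8 and 122.7 CPM in GW4869 cells, so it was lower in EVs here (-2.42) and higher in DMSO EVs (1.55). Its mean in EVs was 27.56 ± 5.08 CPM with GW4869 and 34.94 ± 8.24 CPM with DMSO, and its mean in cells 147.8 ± 22.4 CPM with GW4869 and 12.13 ± 5.96 CPM with DMSO (SD, n = 3 each), so most of the gap between the ratios lay in the cell levels. Those that were higher were Dpp10 (3.05 ± 0.83), Coro2b (2.71 ± 0.70), Ctnnd2 (2.39 ± 0.49, adjusted p = 0.00382), Tpm4 (2.35 ± 0.62) and Cdc7 (2.34 ± 0.65), and the calls of Dpp10, Coro2b, Tpm4 and Cdc7 were lost without GW4869 EV replicate 3 (adjusted p = 0.0782, 0.0616, 0.0682 and 0.104) and without DMSO cell replicate 1 (0.276, 0.0658, 0.0702 and 0.0632), where Dpp10 stood at 1.39. Further single libraries ended calls of Dpp10 (GW4869 cell replicates 2 and 3, DMSO EV replicate 2), Coro2b (GW4869 cell replicate 3), Tpm4 (GW4869 cell replicate 2) and Cdc7 (GW4869 cell replicates 1 and 3, DMSO cell replicate 2, DMSO EV replicate 2), with adjusted p of 0.0519 to 0.0696. All 4 calls were also lost with the DMSO and GW4869 libraries alone (adjusted p = 0.0928, 0.0953, 0.0878 and 0.0956), and that of Cdc7 with library totals (0.0511). Among tRNA fragments, 35 of the 172 5FR_1 ratios were lower than with DMSO and 0 higher, with medians of 0.63 with GW4869 and 1.66 with DMSO. With library totals 22 of them were lower. The counts rest on the other libraries in the model: with the 12 DMSO and GW4869 libraries alone, 9 ratios were higher and 36 lower. Leaving out 1 library at a time gave 32 to 161 higher and 105 to 368 lower, with 32 without DMSO EV replicate 2, 161 and 368 without DMSO EV replicate 1, and 105 without GW4869 EV replicate 3.

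**Figure D5:**
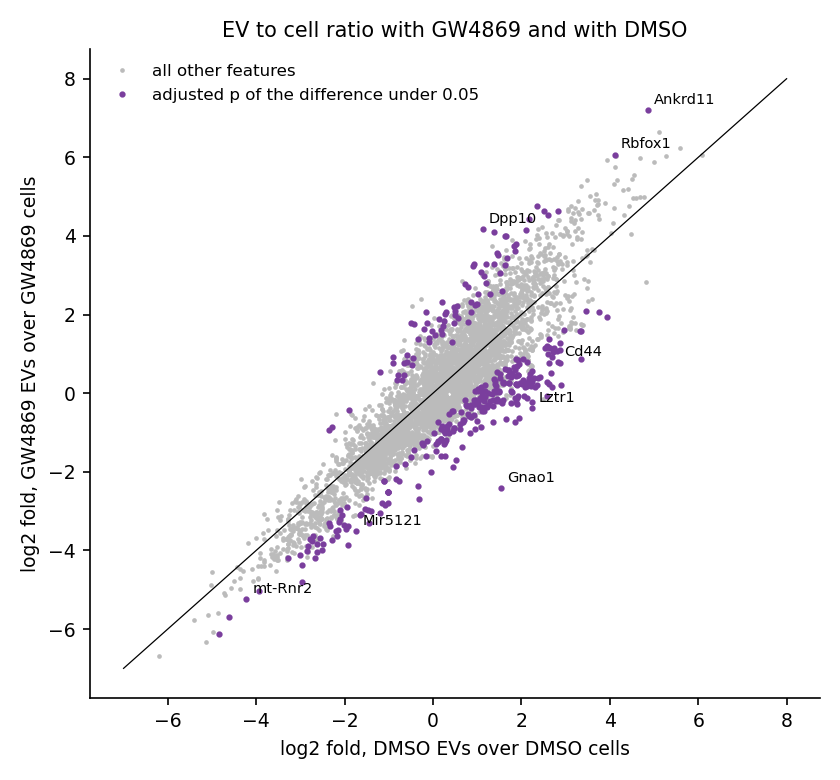
Log2 fold of EVs over cells in GW4869 cultures (vertical axis) against that in DMSO cultures (horizontal axis) for the 4408 features, with the line of equal folds and features in purple whose ratios differed (adjusted p under 0.05). Most points follow the line (r = 0.90), and Gnao1 lies at -2.42 with GW4869 and 1.55 with DMSO.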

How the data were processed

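The submitters' processing notes name Bowtie and the builds GRCm38 and mm10. Settings, trimming, how multiply aligned reads were treated, the annotation used and the counter are not given in the sources used here. Each deposited file holds the authors' raw read count per feature. Of 4441 lines, 33 repeated another in full and were dropped. Coordinates came from GENCODE M21 (GRCm38, from 1), which placed 3531 of the 3628 features outside the tRNAs.

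The counts were fitted with edgeR 4.0.16 in R 4.3.3: filterByExpr (minimum count 10, which removed 0 features), TMM factors, 1 quasi-likelihood model over 8 groups and 24 libraries, and Benjamini-Hochberg adjustment over 4408 features. On simulated counts for EVs against cells it recovered 45% of changes of log2 1 and 99% of log2 2, and for the difference of ratios 20% and 81%. False calls numbered 6 and 4. Only 100 of 4408 features were changed at each size, far fewer than were called for EVs against cells, so recovery in the data may differ. Shares were compared by a two-sided exact permutation test. Alternatives were library totals, RLE factors, DESeq2 1.42.0, a minimum count of 50, no filter, a replicate block, summed tRNA loci, fewer libraries and each library left out.

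Features named were those called with a mean of at least 50 CPM over the 6 libraries and no overlap between groups, by highest and lowest fold: 6 a side for miRNAs and for long genes, 5 for summed tRNA fragments and 2 for other classes, with the 6 most abundant miRNAs, all Y and vault RNAs, and 5 a side for the difference of ratios. Further features were chosen after their values were seen. The members, lists and rules were chosen with earlier results of these data known.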

Additional observations from a re-analysis of the deposited data

Results flagged for a closer look

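Of the features named, 19 had an EV to cell ratio that differed between GW4869 and DMSO cultures by edgeR's test of the difference itself. Among small RNAs the ratio was lower with GW4869 than with DMSO for Mir6236 (-1.004 on the log2 scale), Mir5121 (-1.78), Snord70 (-1.84), Rn18s-rs5 (-0.91), mt-Rnr2 (-1.02), Rmrp (-1.02) and summed tRNA-Gly-TCC 3FR_1 (-0.95). Mir6236 and Rn18s-rs5 were still higher in GW4869 EVs than in GW4869 cells, and the other small RNAs just named, save the tRNA fragment, lower. Among fragments of long genes the ratio was higher with GW4869 for Ankrd11 (2.34), Rbfox1 (1.96), Dpp10 (3.05), Coro2b (2.71), Ctnnd2 (2.39), Tpm4 (2.35) and Cdc7 (2.34). It was lower for Gnao1 (-3.97), Lztr1 (-2.63), Gm15662 (-2.46), Zfp185 (-2.25) and Cd44 (-2.03). Zfp185 lies around Mir2137, whose ratio was lower as well (-1.54 ± 0.39, adjusted p = 0.0177). Features chosen after their values were seen, such as Mir2137, are not among the 19. Of these, Gm42418 (-1.01), AY036118 (-1.09) and summed tRNA-Asp-GTC 3FR_2 (-1.23) also had lower ratios with GW4869 by that test. No group held the 4 or more libraries needed to test for a single library far from the rest.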

How the results depend on the processing

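For EVs against cells in GW4869 cultures, library totals gave 2445 higher and 821 lower in place of 1595 and 1412, with 1595 and 821 calls shared and 1 of the 1412 called higher. All other settings run for this comparison, leaving out each library included, stayed within 1.5 times of both counts. The labels do not state whether EV and cell libraries of the same replicate number are paired. Deviations of same-numbered libraries from their group means correlated at -0.057, -0.033 and -0.098 in GW4869 cultures. In DMSO cultures the values were -0.028, 0.117 and 0.099. With 3 libraries a group, such values cannot decide whether the libraries were paired. A fit with the number as a block gave 1588 higher and 1386 lower, and for the difference of ratios 68 higher and 165 lower.

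For the difference of ratios, with 77 higher and 257 lower, library totals gave 35 and 127, DESeq2 gave 130 higher, and the DMSO and GW4869 libraries alone gave 9 and 36. Leaving out 1 library gave 32 to 161 higher and 105 to 368 lower. The number of higher ratios moved by over 1.5 times without GW4869 cell replicate 1, 2 or 3 (40, 47 and 35), GW4869 EV replicate 1 or 3 (129 and 43), DMSO cell replicate 2 or 3 (42 each) and DMSO EV replicate 1, 2 or 3 (161, 32 and 124). That of lower ratios did without GW4869 cell replicate 3 (166), GW4869 EV replicate 1, 2 or 3 (149, 149 and 105) and DMSO cell replicate 3 (171).

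With genes around small RNAs left out, the difference in share between GW4869 EVs and cells was -26.2 points for miRNAs, -1.22 for tRNA fragments, -3.01 for snoRNAs, -0.417 for mitochondrial tRNAs (-0.303 without rRNA features), 0.393 for Y and vault RNAs and -0.0363 for snRNAs, which turned its sign; fewer counts stand in the denominator there. Of the folds named, those that turned sign with library totals were Mir221 (0.25), Lztr1 (0.36), Gm15662 (0.54), Scarna3a (0.18) and, now called higher, Zfp185 (0.62), Mir150 (0.61), Mir181a-1 (0.60), Mir181a-2 (0.66) and Rpph1 (0.75; 0.003 with a replicate block). Leaving out 1 library gave -0.239 to 0.063 for Mir150, -0.171 to 0.105 for Mir181a-2 and -0.089 to 0.114 for Rpph1, and sign turned without GW4869 EV replicate 1 of Gm15662 (0.036; lowest without any 1 library -0.415) and Zfp185 (0.10; -0.181). In fits of 1 class alone, whose bulk is set to 0, Mir92-1 (0.23), Mir17 (0.34), Mir20a (0.29), Mir222 (0.64), Mir221 (0.95), Mir150 (1.30), Mir155 (0.091), Mir181a-1 (1.30), Mir181a-2 (1.35), Mir181b-1 (0.36), Mir181b-2 (0.31), summed tRNA-Gly-TCC 5_half_up (0.53) and summed tRNA-Asp-GTC 3FR_2 (0.013) turned. The depth and 3 libraries a group limit small folds.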
